A study of Mus musculus with 55 samples.

Results

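The samples described here are cultures of mature mouse forebrain neurons taken 45 min after tetrodotoxin was removed, set against cultures still under the toxin. Tetrodotoxin (TTX) blocks the voltage-gated sodium channels that carry action potentials. They were chosen by their labels alone, as the columns of TTX withdrawal (TTXw) at 45 min and of basal TTX in the table of the stimuli experiment, which gave 6 of the 55 samples of the series, 2 of TTXw at 45 min (replicates 1 and 3) and 4 of basal TTX. The cells were primary neurons of CD1 mouse embryos, from cortex and hippocampus, grown to 21 days in vitro (21DIV). Both groups had been held in 1 μM TTX for 48 h, and the TTXw cultures were then washed into medium without it. Control neurons are said to have been washed in the same way, and whether their wash held TTX is not given in the sources used here. The other samples of the experiment that enter below are TTXw at 15 min (n = 3) and at 180 min (n = 3), basal cultures that never had TTX (n = 3), and basal cultures given 50 μM bicuculline (Bic), a blocker of GABA-A receptors, or 55 mM KCl, which depolarises the membrane, for 45 min (n = 2 each). The genotype label of all these groups was CD1 mice, with no transgene or deletion named. RNA was measured by CEL-Seq2, which counts reads from the 3′ ends of transcripts, and nothing in the labels says whether replicates came from separate cultures, so the p-values measure the spread between these samples.

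Neurons answer a burst of firing by calcium entry through NMDA receptors and L-type channels. Kinases of the calmodulin and MAP kinase pathways then modify transcription factors already in the nucleus, CREB and SRF among them, and these switch on immediate early genes (IEGs) without new protein synthesis. The earliest products are mostly further transcription factors of the Fos, Jun, Egr, Nr4a and Klf families, with short mRNAs and short genes, alongside effectors such as Arc and phosphatases that close the signal. Removal of TTX after days of silence is a classic way to let a network fire together again, in cultures whose synapses have been strengthened by homeostatic scaling.

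Counts on genes were 1389572 to 2686779 in the basal TTX samples, and 1679599 and 2021441 in TTXw at 45 min. A total of 12027 genes passed a filter on low counts (at least 5 CPM, counts scaled to a common library size, in at least 2 samples) and were tested in 1 fit over the 27 samples of the experiment, with the quasi-likelihood test of edgeR and p-values adjusted after Benjamini and Hochberg. A gene is called when its adjusted p is under 0.05 and its fold change is at least 1.5. Levels are given in CPM after TMM scaling. The 3′ counts are not divided by length, so levels are compared between samples and not between genes. Neuron markers (7 genes summed) gave 4112 to 4737 CPM in basal TTX and 4375 to 4531 CPM in TTXw at 45 min, and astrocyte markers (12 genes) gave 8555 to 9459 CPM and 8509.9 to 11210.0 CPM, so these are mixed cultures of neurons and glia. Markers of the oligodendrocyte lineage (10 genes) gave 2249.6 to 2299 and 2241 to 2411 CPM, and those of GABAergic neurons (8 genes) gave 4460.5 to 6056 and 3253 to 5129.9 CPM, with replicate 1 of TTXw the lower and replicate 3 within the range of basal TTX. Markers of microglia, vascular cells and choroid plexus were low, with sums of at most 8.66, 41.8 and 11.5 CPM in TTXw at 45 min. None of the markers tested passed the threshold at 45 min by the quasi-likelihood test, the likelihood ratio test or DESeq2, and 4 of them had an unadjusted p under 0.05. In such bulk samples, fewer cells of a type and less RNA per cell cannot be told apart.

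At 45 min after TTX removal, 46 of 12027 genes (0.382%) differed from basal TTX, 42 of them higher (0.349%) and 4 lower (0.0333%). Immediate early transcription factors were prominent among the rises: Fos rose 17.8-fold, Klf4 12.7-fold, Fosb 11.95-fold, Nr4a1 10.2-fold and Maff 9.30-fold. Of the 42 genes, 13 rose at least 4-fold, 12 between 2- and 4-fold, and 17 between 1.5- and 2-fold. Over all genes tested the median log2 fold change was -0.003. In each of the 46 genes both TTXw samples lay on the same side of all 4 basal TTX samples, which was so for 8.8% (higher) and 8.5% (lower) of all genes tested. The count rests on few samples: it was 18 without TTXw replicate 1 and 88 without TTXw replicate 3, the lone remaining sample being assumed to vary like the other groups. Replicate 1 gave the higher value in 36 of the 42 risen genes. There were 15 genes called in each of the 6 fits that left out 1 sample, namely Fos, Klf4, Fosb, Nr4a1, Egr1, Ier2, Btg2, Dusp1, Atf3, Junb, Arc, Nfkbiz, Setd5, Klf6 and Jun. The other 31 lost the call in at least 1 of them. By the sample left out, 28 of the 46 lost it without TTXw replicate 1, 9 without TTXw replicate 3, and 11, 13, 3 and 19 without basal TTX replicates 1, 2, 3 and 4.

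**Figure D1:**
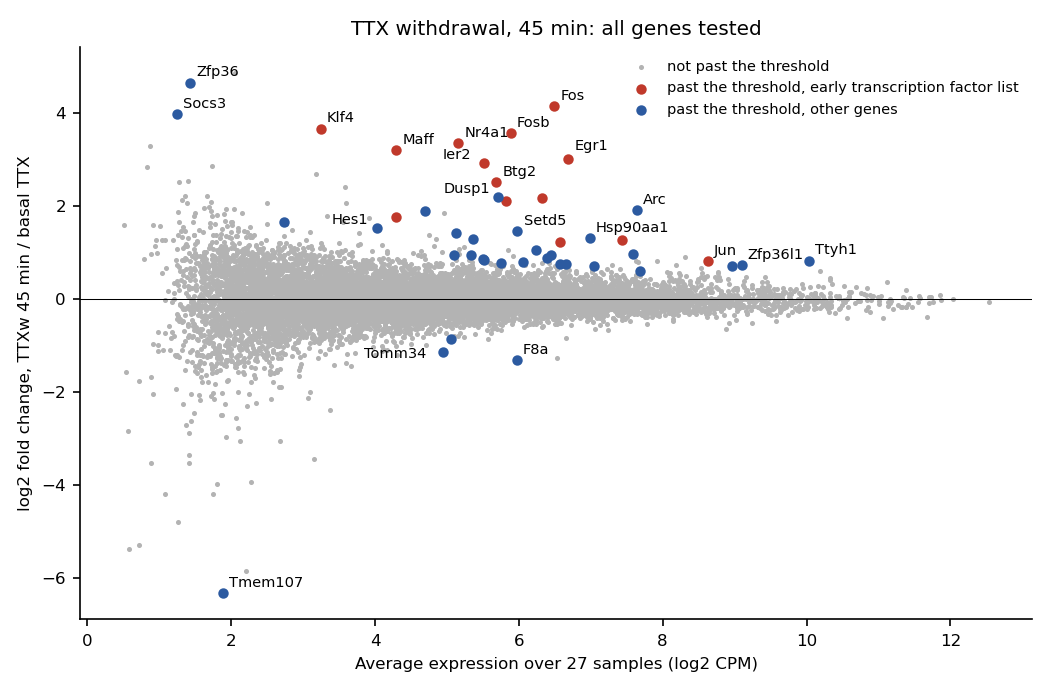
Each point is a gene tested, with its average level over 27 samples (log2 CPM, x axis) against its log2 fold change between TTXw at 45 min (n = 2) and basal TTX (n = 4, y axis). The 46 genes past the threshold are coloured, red for the list of early transcription factors, and 42 of them lie above 0; the 14 red points reach a log2 fold change of 4.15 (Fos).

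The Fos and Jun families make up AP-1, the dimeric factor that binds the promoters and enhancers of later genes. Fos (chromosome 12, 85473890 to 85477274) had 5.99, 19.2, 6.44 and 5.42 CPM in the 4 basal TTX samples and 191 and 134 CPM in the 2 TTXw samples, a log2 fold change of 4.15 ± 0.24 (SE, adjusted p = 1.86e-15). Replicate 2 of basal TTX stood above the other three, and the lower TTXw sample was still far over it. Fosb (chromosome 7, 19302696 to 19310118) had 3.99, 4.07, 5.01 and 5.06 CPM in basal TTX and 76.6 and 36.1 CPM in TTXw, the pair differing among themselves while both clear all controls (3.58 ± 0.29, adjusted p = 2.63e-11). Junb, whose product dimerises with Fos proteins, had 15.3, 15.1, 11.4 and 14.8 CPM against 65.97 and 58.7 CPM (2.12 ± 0.25, adjusted p = 4.94e-07). Jun had 293, 293, 265 and 224 CPM in basal TTX and 481 and 469 CPM in TTXw (0.83 ± 0.14, adjusted p = 0.000448). The rest of the family did not pass. Fosl2 had a log2 fold change of 0.70 with an adjusted p of 0.388, and Fosl1 had at most 2 counts in any of the 6 samples.

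Atf3 and Maff code for leucine zipper factors, of the CREB/ATF and small Maf groups. Atf3 had 7.98, 12.8, 8.58 and 10.1 CPM in basal TTX and 51.2 and 40.4 CPM in TTXw (2.18 ± 0.26, adjusted p = 3.59e-07). Maff (chromosome 15, 79346621 to 79359078) had 3.33, 1.16, 0.715 and 0.723 CPM against 17.7 and 9.14 CPM (3.22 ± 0.54, adjusted p = 0.000457). Its partner Mafk stayed uncalled, at 0.20.

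Among the nuclear receptors of the Nr4a family, which act without a known ligand, Nr4a1 (chromosome 15, 101253902 to 101274795) had 4.66, 3.48, 3.58 and 2.17 CPM in basal TTX and 36.5 and 31.7 CPM in TTXw (3.36 ± 0.31, adjusted p = 4.96e-10). Nr4a2 had 3.99, 4.07, 6.44 and 3.62 CPM against 22.97 and 8.18 CPM, where TTXw replicate 3 barely cleared the highest control (1.78 ± 0.39, adjusted p = 0.0176). The call of Nr4a2 was lost in 3 of the 6 fits that left out a sample. Nr4a3 had 28.6, 25.6, 26.5 and 34.7 CPM and 47.1 and 45.2 CPM, with no overlap but an adjusted p of 0.0818. The 3 receptors thus lay in the order Nr4a1, Nr4a2, Nr4a3 by size of the difference, a test of that order not having been run.

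Zinc finger factors rose with them. Klf4 (chromosome 4, 55527137 to 55532475), known for its part in pluripotency and in restraint of axon growth, had 0.665, 3.48, 0.715 and 2.17 CPM in basal TTX and 29.5 and 20.2 CPM in TTXw (3.67 ± 0.45, adjusted p = 6.18e-07). Klf6 had 28.6, 30.8, 40.8 and 43.8 CPM against 79.5 and 90.4 CPM (1.22 ± 0.19, adjusted p = 0.000123). Egr1, the IEG also called Zif268, had 18.6, 27.3, 22.2 and 17 CPM against 179.7 and 163 CPM (3.03 ± 0.21, adjusted p = 3.76e-13). All 3 were clear of every control. Egr3 and Egr4, which belong to the same family, had log2 fold changes of 1.29 and 1.07 with adjusted p-values of 0.103 and 0.103. Klf10 lay at -0.36 and Klf2, at 1.91 CPM in basal TTX, at 1.09, neither of them called.

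Ier2 and Btg2, both quick responders to growth factors as well as to firing, completed the group with large rises. Ier2 (chromosome 8, 84661331 to 84662852) had 9.31, 18, 15.02 and 9.04 CPM in basal TTX and 96.6 and 93.8 CPM in TTXw (2.92 ± 0.23, adjusted p = 1.53e-11). Btg2, an antiproliferative regulator of mRNA turnover, had 15.3, 26.1, 17.2 and 15.9 CPM against 117 and 96.7 CPM (2.52 ± 0.20, adjusted p = 1.53e-11). Npas4, an IEG that answers calcium in neurons rather selectively, had 8.65, 9.29, 13.6 and 8.32 CPM in basal TTX and 18.8 and 27.4 CPM in TTXw (1.27 ± 0.26, adjusted p = 0.0073), and the call was lost in 2 of the 6 fits that left out a sample. In the list of early transcription factors as a whole, 28 of 31 members were tested, 14 rose, none fell and 14 did not pass; their median log2 fold change was 1.25. Both TTXw samples were above all 4 controls in 20 of the 28, which was so for 8.8% of all genes tested. Of all genes tested 0.349% were called higher. Csrnp1, at 0.665, 0.581, 5.72 and 0.723 CPM in basal TTX and 11.2 and 7.22 CPM in TTXw, stood just outside the threshold with a log2 fold change of 2.42 (adjusted p = 0.0519). Srf, Crem, Nab2, Per1 and Ier5 had log2 fold changes between -0.21 and 0.26. Jund and Egr2 had no counts in the 6 samples and Myc had at most 6 in a sample, so none of these 3 could be tested.

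**Figure D2:**
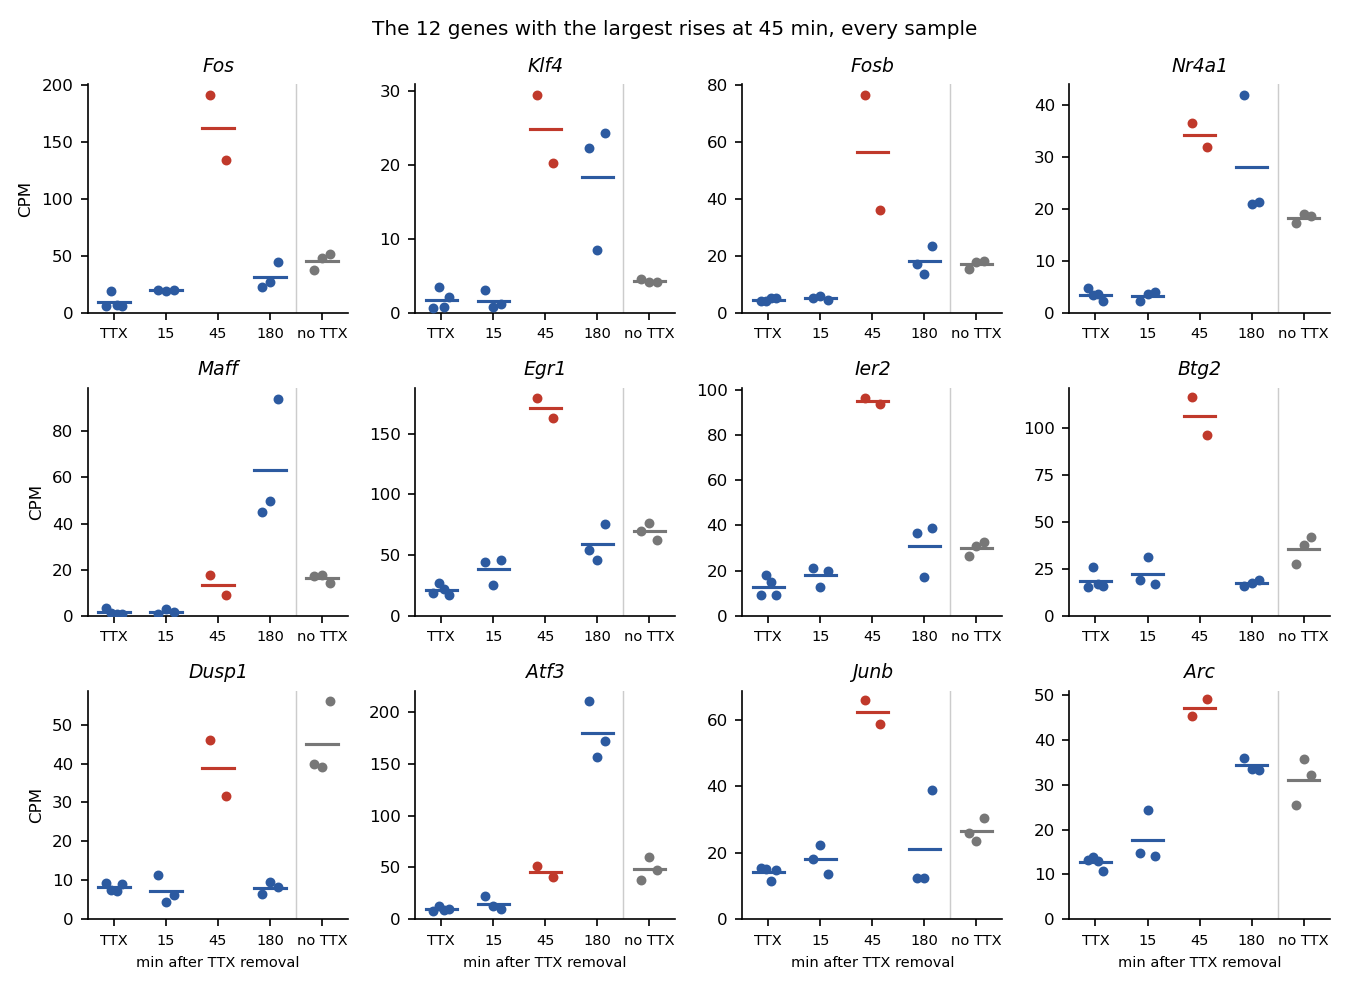
Levels (CPM, linear axes from 0) of the 12 genes with the largest rises at 45 min among those with an average log2 CPM of at least 3, in every sample of basal TTX (n = 4), TTXw at 15 (n = 3), 45 (n = 2, red) and 180 min (n = 3) and cultures without TTX (n = 3, grey), with a bar at each group's mean. At 15 min Fos lies at 19.6 CPM; from 45 to 180 min Btg2 and Dusp1 return to 17.4 and 8.12 CPM while Atf3 climbs to 180.0 CPM.

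The sequences just before the start sites of the leading factors are shown because these genes moved together and because CREB, an activity-regulated factor, binds the cyclic AMP response element (CRE). Each is the 250 bases before a start site in the RefSeq promoter table (GRCm38.p6), on the gene's strand, with letters that match a motif in capitals. The motifs searched, on both strands, were the full CRE (TGACGTCA), its core (TGACG, contained in the full CRE), the AP-1 site (TGANTCA) and the CArG box bound by SRF.
Fos, chr12:85473640-85473889, plus strand: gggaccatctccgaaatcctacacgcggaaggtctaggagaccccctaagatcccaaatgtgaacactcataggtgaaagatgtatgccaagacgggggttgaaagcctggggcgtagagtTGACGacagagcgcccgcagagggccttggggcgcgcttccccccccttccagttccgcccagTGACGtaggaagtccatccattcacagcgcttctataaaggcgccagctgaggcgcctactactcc
Klf4, chr4:55532476-55532725, minus strand: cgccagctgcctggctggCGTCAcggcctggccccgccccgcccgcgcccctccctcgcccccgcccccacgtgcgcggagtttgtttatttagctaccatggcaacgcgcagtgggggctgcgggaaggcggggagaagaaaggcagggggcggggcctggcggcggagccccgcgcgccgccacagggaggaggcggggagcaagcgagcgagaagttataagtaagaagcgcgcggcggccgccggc
Fosb, chr7:19310046-19310295, minus strand: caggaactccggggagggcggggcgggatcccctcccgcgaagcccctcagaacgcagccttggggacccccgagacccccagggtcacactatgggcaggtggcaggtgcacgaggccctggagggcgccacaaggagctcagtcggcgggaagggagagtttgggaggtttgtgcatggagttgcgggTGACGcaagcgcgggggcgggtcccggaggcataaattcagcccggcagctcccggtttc
Nr4a1, chr15:101266596-101266845, plus strand, before a start site inside the gene's annotated span: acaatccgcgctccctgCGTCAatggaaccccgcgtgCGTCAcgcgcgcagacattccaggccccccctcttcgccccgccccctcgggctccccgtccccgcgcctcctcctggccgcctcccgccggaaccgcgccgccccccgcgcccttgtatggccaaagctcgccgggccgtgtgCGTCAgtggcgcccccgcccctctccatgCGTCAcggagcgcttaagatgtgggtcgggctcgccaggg
Maff, chr15:79346371-79346620, plus strand, the most upstream of 3 windows: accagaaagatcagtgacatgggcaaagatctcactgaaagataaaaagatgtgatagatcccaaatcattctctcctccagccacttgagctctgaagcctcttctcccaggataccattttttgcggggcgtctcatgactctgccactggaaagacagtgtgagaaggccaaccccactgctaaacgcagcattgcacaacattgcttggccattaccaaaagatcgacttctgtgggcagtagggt

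Read along the strand, the CRE core stood at 2 places before Fos, the nearer at -66 to -62, at 1 place before Fosb (-60 to -56), at 1 place on the opposite strand before Klf4 (-232 to -228) and at 4 places on the opposite strand before Nr4a1, the nearest at -40 to -36. The Fosb window, like that of Nr4a1, lies before a start site inside the gene's annotated span. No motif was found in the Maff window printed, and another of its 3 windows held a full CRE. Promoter windows were on hand for 32 of the 42 risen genes, and the core was in those of 16 genes (50.0%), against 31.3% of 9599 tested genes with a window and 19.8% of all 27025. For the 12 risen early transcription factors with a window the share was 83.3% (10 genes, Atf3, Btg2, Fos, Fosb, Junb, Klf4, Maff, Npas4, Nr4a1 and Nr4a2). The full CRE was in 12.5% of the risen genes' windows (Btg2, Dusp1, Maff and Ppp1r15a), against 3.27% of the tested genes and 1.77% of all. The AP-1 letters were in 3.12% (Zfp36l1) against 5.27% and 7.82%, and the CArG box in 6.25% (Top1 and Zfp36) against 1.33% and 1.62%. Over the 47 genes of the early transcription factor and effector lists that had a window, risen or not, the core was in 68.1%. Of the 16 risen genes with the core, 10 were early transcription factors, so their share does not separate the rise from list membership. These are matches of letters within 250 bases, and no site was measured. Sites further from the start were not searched, and Egr1, Ier2 and Arc had no window.

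Among effectors of the early response fewer genes passed. Arc (chromosome 15, 74669081 to 74672570), which drives removal of AMPA receptors from synapses, had 13.3, 13.9, 12.9 and 10.8 CPM in basal TTX and 45.4 and 49.1 CPM in TTXw (1.91 ± 0.23, adjusted p = 7.05e-07). Ppp1r15a, the GADD34 subunit that directs dephosphorylation of eIF2α, had 9.98, 9.29, 18.6 and 15.5 CPM against 28.3 and 37.5 CPM (1.30 ± 0.26, adjusted p = 0.00548). These were the 2 members of 25 tested that rose by the quasi-likelihood test (5 by the likelihood ratio test, 3 by DESeq2 and 5 with no filter on low counts), and the list's median log2 fold change was 0.40. Ccn1, Trib1 and Gadd45g had log2 fold changes of 2.06, 1.39 and 0.73, each with both TTXw samples above all controls, and missed the threshold (adjusted p = 0.0651, 0.0908 and 0.109). Homer1, Plk2, Rgs2, Ptgs2, Nrn1 and Sgk1, all known targets of firing, lay between -0.35 and 0.67. Of the 13 feedback inhibitors tested, Dusp1, the phosphatase that inactivates MAP kinases, rose (chromosome 17, 26505591 to 26508472). It had 9.31, 7.55, 7.15 and 9.04 CPM in basal TTX and 45.9 and 31.7 CPM in TTXw (2.19 ± 0.25, adjusted p = 2.53e-07). The list's median was 0.09, its most abundant members Rgs4 and Spred1 being at 0.04 and 0.09, and Dusp6 being at 0.78 with an adjusted p of 0.267.

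Secreted factors and neuropeptides were not called at 45 min. Of 17 tested, 0 passed by the quasi-likelihood test, by the likelihood ratio test and by DESeq2 (1 with no filter on low counts), 4 had an unadjusted p under 0.05, and the median log2 fold change was -0.09. Bdnf had 32.6, 24.97, 27.9 and 23.5 CPM in basal TTX and 35.3 and 28.4 CPM in TTXw, and Nptx2 had 13.97, 11.6, 19.3 and 17.7 and 21.8 and 19.2 CPM, the groups overlapping in Bdnf and Nptx2 alike. Sst and Vgf, the most abundant, had log2 fold changes of -0.39 ± 0.16 and -0.41 ± 0.18. Neither were the genes of synapses and scaling called: 0 of 26 passed by each of these tools, 7 had an unadjusted p under 0.05, and the median was 0.04, with Gria2 at 0.46 ± 0.18. The calcium and CREB pathway that relays the signal, 21 genes tested, also gave 0 calls by the 3 tools, 1 at an unadjusted p under 0.05 and a median of 0.10. Mef2c, among its most abundant members, was at 0.10 ± 0.14.

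Stress and metabolic lists held few calls. Of 9 heat shock chaperones Hsp90aa1, the inducible form of HSP90, rose from 107, 88.3, 110.2 and 68.7 CPM to 312 and 148 CPM (1.31 ± 0.25, adjusted p = 0.00328), the larger value being in replicate 1. Hsp90ab1, the constitutive form, was at 0.02, Hsph1 at -0.05, and Hspa1b at -0.26. Of 8 Notch and BMP targets Hes1, a repressor that follows Notch and also serum and calcium signals, rose from 11.3, 11.6, 20.7 and 12.3 CPM to 47.1 and 33.2 CPM (1.54 ± 0.25, adjusted p = 0.000324), while Hes5, the canonical Notch target, was at -0.45, Id2 at -0.04 and Id4 at -0.13. DESeq2 called 0 of these 8 targets, so Hes1 did not keep its call there. ATF4 targets (16 tested, median 0.13), sterol genes (16, median 0.19), glucose and hypoxia genes (12, median 0.10) and clock genes (13, median 0.00) gave 0 calls by the quasi-likelihood test, the likelihood ratio test and DESeq2, with 1, 0, 2 and 2 genes at an unadjusted p under 0.05. Their most abundant members were Psat1 (0.16) and Slc3a2 (0.07), Hmgcs1 (0.02) and Msmo1 (0.24), Ldha (0.13) and Bnip3 (0.04), and Tef (-0.01) and Nr1d2 (-0.15).

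**Figure D3:**
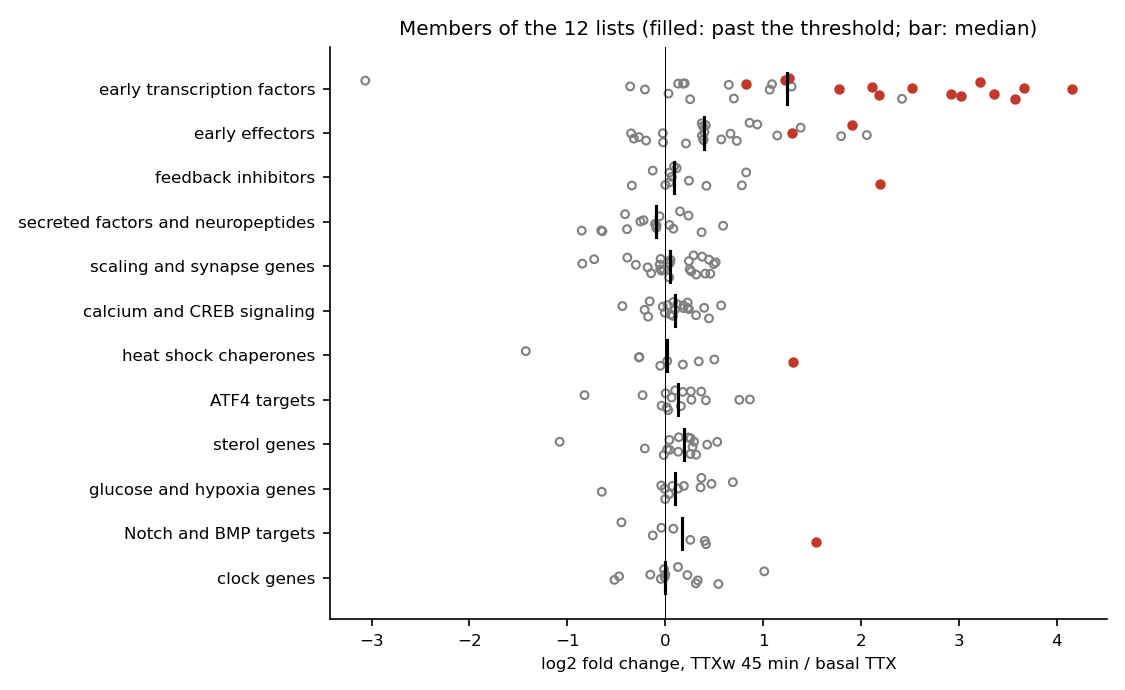
Each point is a tested member of 1 of the 12 lists, at its log2 fold change between TTXw at 45 min and basal TTX (x axis); filled points passed the threshold and the bar is the list's median. The calls gather in the early transcription factors (14 of 28, median 1.25), with 2 early effectors, 1 feedback inhibitor, 1 chaperone and 1 Notch or BMP target.

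Of the risen genes, 23 belonged to none of the lists, and those given here are named after their values were seen. Several regulate mRNA or cytokine signals. Zfp36 (tristetraprolin), which speeds the decay of mRNAs with AU-rich elements, had 0 or 1 counts in each basal TTX sample (3 in all) and 44 in all in TTXw, a ratio of 28.7 with a 95% exact interval of 9.20 to 144 that covers counting error only (adjusted p = 0.000149). Socs3, an inhibitor of cytokine receptors, had 3 counts against 27, a ratio of 17.6 (interval 5.42 to 90.7, adjusted p = 0.0219). Nfkbiz, an IκB-like nuclear protein, had 14.6, 13.9, 15.7 and 16.3 CPM in basal TTX and 63.6 and 50.99 CPM in TTXw (1.90 ± 0.23, adjusted p = 5.17e-07). Zfp36l1, of the same family as Zfp36, had 689, 642, 461 and 440.4 CPM against 941 and 905 CPM (0.73 ± 0.14). Adamts1, a secreted protease, rose by 1.43 ± 0.28 on the log2 scale.

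Another set of these genes works on chromatin and transcription. Setd5, a chromatin regulator of the SET family, had 64.5, 50.5, 55.8 and 33.3 CPM in basal TTX and 129.6 and 144 CPM in TTXw (1.46 ± 0.24, adjusted p = 0.000324). The bromodomain gene Brd3 (0.70 ± 0.16), Ankrd11 (0.94 ± 0.21), the topoisomerase gene Top1 (0.71 ± 0.16), the mRNA export gene Thoc2 (0.76 ± 0.18), Hpf1 (0.95 ± 0.21), Purg (0.87 ± 0.17) and the noncoding RNA Ftx (0.94 ± 0.21) rose by less. Genes of the neuronal surface and synapse were Pclo, which codes for an active zone scaffold (0.88 ± 0.17), Frrs1l, an AMPA receptor assembly factor (1.07 ± 0.23), the nicotinic receptor gene Chrna2 (1.65 ± 0.37), Epha6 (0.79 ± 0.18) and Plppr4 (0.98 ± 0.24). Ttyh1, Zdhhc20, Chpt1 and Pcnx completed the group, at 0.83 ± 0.18, 0.85 ± 0.20, 0.78 ± 0.17 and 0.61 ± 0.14. Ttyh1, which glia express strongly, had 1175, 1127, 988 and 795 CPM in basal TTX and 2184 and 1439 CPM in TTXw, the higher value being in replicate 1, where the astrocyte markers summed to 11210.0 CPM against 8509.9 CPM in replicate 3; the part of cell composition in it was not tested. The genes differed in length as well: the 17 risen genes of the early and feedback lists spanned a median of 4291 bases, the other 25 a median of 34458 bases, and all tested genes 25465 bases.

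The genes that were lower at 45 min numbered 4. F8a had 35.3, 34.3, 45.8 and 67.3 CPM in basal TTX and 17.1 and 20.2 CPM in TTXw (-1.32 ± 0.32, adjusted p = 0.0497), Tomm34, a cochaperone of mitochondrial import, 30.6, 32.5, 29.3 and 32.9 CPM against 11.2 and 16.8 CPM (-1.15 ± 0.26, adjusted p = 0.0303), and Exoc7, an exocyst subunit, 45.2, 39.5, 42.9 and 43.8 CPM against 20.03 and 26.5 CPM (-0.87 ± 0.21, adjusted p = 0.0497). Tmem107, a protein of the ciliary transition zone, named after its values were seen, had 3.99, 4.65, 6.44 and 3.25 CPM (32 counts in all) and 0 counts in both TTXw samples, at least 2.59-fold lower against a floor of 3 counts per library (adjusted p = 0.0119). None of the 4 kept its call in all 6 fits that left out a sample, and Exoc7 kept it in 0 of them.

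The rise at 45 min was set against the other times. At 15 min 0 of 12027 genes differed from basal TTX (quasi-likelihood test and DESeq2; 758 at an unadjusted p under 0.05, 9 by the likelihood ratio test). Among the 42 genes that had risen by 45 min the median log2 fold change at 15 min was 0.18, with 7 at an unadjusted p under 0.05 and 2 called by the likelihood ratio test, which also called 2 of the 28 early transcription factors. Fos had 19.6, 19.4 and 19.7 CPM at 15 min, all above every basal TTX sample, and Egr1 had 44.6, 25.2 and 45.6 CPM, with log2 fold changes of 1.11 ± 0.30 and 0.91 ± 0.23 that did not pass the quasi-likelihood test (adjusted p = 0.544 for both).

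In the direct test of 45 against 15 min, 32 genes differed (0.266%), 31 higher (0.258%) and 1 lower (0.00831%). The TTXw samples at 45 min are shared with the comparison that named the 42 genes; of these, 24 were higher than at 15 min and 0 lower. All 14 risen early transcription factors were among the 24. Among genes with an average log2 CPM of at least 3 the largest differences were those of Klf4, Nr4a1 and Fosb, with log2 differences of 3.69 ± 0.48, 3.43 ± 0.33 and 3.41 ± 0.31 (adjusted p = 5.02e-06, 4.41e-09 and 1.46e-09). Aimp2 was the gene that was lower (-1.13 ± 0.22, adjusted p = 0.00679). Genes called against 15 min but not against basal TTX numbered 8, and besides Aimp2 they were Celsr2, Cfap36, Cxcl1, Egr4, Gm26871, Gm34921 and Neat1, named after their values were seen. Egr4 went from 3.40, 8.62 and 6.19 CPM at 15 min to 15.9 and 14.4 CPM (1.43 ± 0.32, adjusted p = 0.0315). The count was 15 without TTXw 45 min replicate 1, 67 without replicate 3, 21 without TTXw 15 min replicate 2 and 85 when these 2 groups were fitted alone.

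The 180 min samples were then compared with those at 45 min. Against 45 min, 1483 genes differed (12.3%), 669 higher (5.56%) and 814 lower (6.77%), and 913 without TTXw 45 min replicate 1. Of the 42 genes 19 were lower at 180 min than at 45 min, 2 were higher and 21 did not pass. The 42 genes were chosen for high values in the 45 min samples used here, which favours a fall. Btg2 went from 117 and 96.7 CPM to 15.7, 17.5 and 18.98 CPM (log2 difference -2.61 ± 0.22, adjusted p = 6.38e-11), and Fos from 191 and 134 CPM to 22.9, 26.5 and 44.04 CPM (-2.41 ± 0.23, adjusted p = 6.52e-10). Dusp1 (-2.22 ± 0.28), Ier2 (-1.68 ± 0.23), Fosb (-1.66 ± 0.26), Junb (-1.64 ± 0.27), Egr1 (-1.56 ± 0.21) and Npas4 (-0.84 ± 0.26) were also lower. The 2 that went on rising were Atf3, from 51.2 and 40.4 CPM to 211, 157 and 172 CPM (1.98 ± 0.21, adjusted p = 9.14e-09), and Maff, from 17.7 and 9.14 CPM to 45.1, 49.7 and 94.2 CPM (2.24 ± 0.34, adjusted p = 8.63e-06). Klf4, Nr4a1, Nr4a2, Klf6, Arc and Nfkbiz did not differ past the threshold between 45 and 180 min, with log2 differences between -0.48 and 0.70.

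Against the same basal TTX samples, the 180 min samples gave 20 of the 42 genes as higher (7.33% of all genes) and 1, Epha6, as lower (6.69%). Fos had a log2 fold change of 4.15 at 45 min and 1.75 at 180 min, Btg2 of 2.52 and -0.09, Atf3 of 2.18 and 4.16, and Maff of 3.22 and 5.45. In the list of early transcription factors 14 of 28 were higher at 180 min, as many as at 45 min, and these comparisons share their controls. Of the 17 secreted factors and neuropeptides 1 was higher at 180 min than in basal TTX and 7 were lower, with a median of -0.53. Genes outside the early lists led the change from 45 to 180 min. Ifi202b (5.70 ± 0.37), Emp1 (4.97 ± 0.35) and Ptx3 (3.80 ± 0.27) had the largest rises under the rule for named genes, each being within or near the range of basal TTX at 45 min; Emp1, for one, had 9.42 and 6.73 CPM at 45 min and 7.32, 9.87, 5.72 and 6.51 CPM in basal TTX. Hes5 had the largest fall under that rule (-3.01 ± 0.30), to 4.25 ± 0.315 CPM (SD, n = 3), and Hes1 was at 15.6 ± 6.21 CPM. Marker sums moved over the same interval: astrocyte markers reached 12250.0 to 16642 CPM and neuron markers 2575 to 3161 CPM at 180 min, and their part in these differences was not tested.

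The 45 min samples of Bic and KCl show how other routes to activity compare at the same time, each against cultures without TTX. Since the controls differ, the test was of the difference between responses. By the paper's methods, Bic, KCl and basal cultures kept most of their conditioned medium, and TTXw cultures were washed into fresh medium. The part of this handling in the differences between responses was not tested. Between the TTXw and Bic responses 214 genes differed (1.78%), 94 with a larger value in TTXw (0.782%) and 120 with a smaller value (0.998%); 10 of the 42 risen genes were in the former set and 2 in the latter, the 42 having been chosen on the same TTXw samples. The 2 with a smaller value in TTXw were Arc and Npas4. Arc had 1096 and 1474 CPM with Bic and 25.5, 35.7 and 32.2 CPM in basal cultures, a log2 fold change of 5.38 ± 0.18 beside 1.91 ± 0.23 in TTXw (difference -3.46 ± 0.31, adjusted p = 1.75e-09). Npas4 had 668 and 766 CPM with Bic and 81.4, 67.4 and 58 CPM in basal cultures, 3.37 ± 0.15 beside 1.27 ± 0.26 (difference -2.10 ± 0.30, adjusted p = 0.000137). Fos, by contrast, rose from 37.5, 48.01 and 51.2 CPM to 261 and 267 CPM with Bic (2.54 ± 0.20) and so from a higher start by a smaller ratio than in TTXw (difference 1.61 ± 0.33, adjusted p = 0.00563).

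Several genes called in TTXw were not called in Bic, and their responses differed by the test of the difference. Maff had 10.5 and 10.9 CPM with Bic and 17.2, 17.5 and 14.03 CPM in basal cultures (difference 3.82 ± 0.65, adjusted p = 0.00075), and Klf4 had 6.11 and 7.68 and 4.58, 4.09 and 4.17 CPM (difference 2.98 ± 0.66, adjusted p = 0.0101). Nfkbiz had 22.3 and 22.4 and 16.6, 20.8 and 24.6 CPM (difference 1.78 ± 0.34, adjusted p = 0.00235). Ppp1r15a moved in opposite directions, higher in TTXw (1.30 ± 0.26) and lower in Bic (-0.70 ± 0.21, adjusted p = 0.029), the difference being 2.00 ± 0.33 (adjusted p = 0.000675). The controls themselves differed for some of these genes. Maff had a mean of 1.48 CPM in basal TTX against 16.2 CPM in basal cultures, and 13.4 CPM in TTXw at 45 min. Ppp1r15a was also lower in basal TTX than in basal cultures, and in TTXw at 45 min it was still below them. Klf4 and Nfkbiz did not differ past the threshold between these controls. F8a was lower in TTXw and higher in Bic (difference -2.42 ± 0.41, adjusted p = 0.000675). For Fosb, Btg2, Dusp1, Junb and Jun the difference did not pass, at 0.28 ± 0.39, 0.12 ± 0.28, 0.33 ± 0.31, -0.47 ± 0.34 and -0.03 ± 0.20. Outside the risen genes, and among called genes that reach an average log2 CPM of 3, Krt6a (-4.50 ± 0.85) and Osbpl3 (-3.18 ± 0.85) had the most negative differences, and Gabrq, with at most 3.37 CPM in TTXw, the most positive (4.19 ± 1.00). The count of 214 was 109 and 83 without TTXw replicates 1 and 3, 82 without Bic replicate 2, and 138 and 121 without basal replicates 1 and 5.

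Against basal cultures 896 genes differed in Bic (7.45%), 4.5% higher and 2.95% lower, and of the 42 genes 18 were higher and 1, Ppp1r15a, lower. At 45 min, Bic raised 18 of 25 early effectors and 7 of 17 secreted factors and neuropeptides with medians of 0.99 and 0.39, where TTXw raised 2 and 0. The difference between responses passed for 7 of the 25 effectors, 6 smaller in TTXw and 1 larger, and for 4 of the 17 secreted factors, all smaller. Early transcription factors differed in 8 of 28, 4 in each direction, and 19 of 28 rose in Bic. Markers of glia moved in the same contrasts. Of the astrocyte markers 6 of 12 were higher in Bic than in basal cultures (median 0.78, sums of 5767 to 6664 against 3116 to 3696 CPM), and of the oligodendrocyte lineage 4 of 9. The difference between the TTXw and Bic responses was negative in all 12 astrocyte markers (median -0.75, 2 called), and the part of these cells in the differences was not tested.

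**Figure D4:**
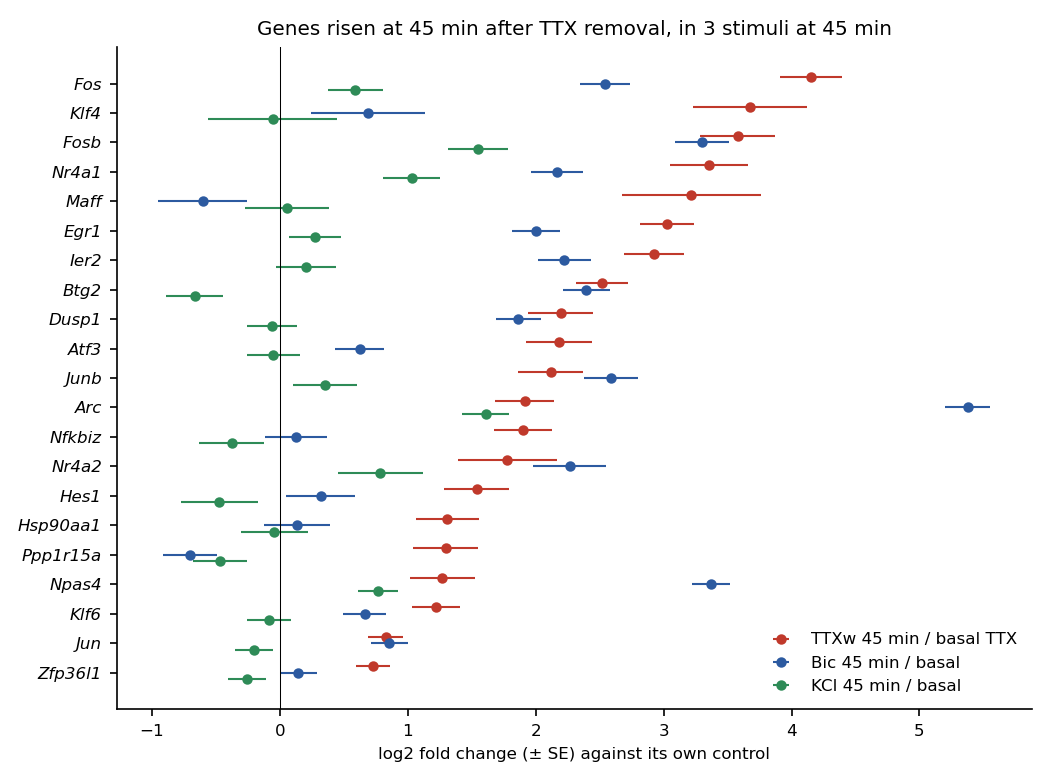
log2 fold change (x axis, with its SE, derived from the test statistic) of 21 genes risen at 45 min after TTX removal, the 19 that belong to a list with Nfkbiz and Zfp36l1, in TTXw (red, against basal TTX), Bic (blue) and KCl (green, both against basal cultures), all at 45 min with n = 2. Arc and Npas4 lie far to the right in Bic, at 5.38 and 3.37; in Maff, Klf4, Nfkbiz and Ppp1r15a the red points stand apart from the other two.

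KCl for 45 min raised few of these genes. Against basal cultures 4 of the 42 were higher (0.607% of all genes), namely Fosb, Nr4a1, Arc and Npas4. The difference between the TTXw and KCl responses passed for 28 genes (0.233%), 24 larger in TTXw (0.2%) and 4 smaller (0.0333%), and 17 of the 24 were among the 42 risen genes. The 42 were chosen for high values in the same TTXw samples, which favours a larger TTXw response, and the difference was positive in all 42. Fos had 62.6 and 74.1 CPM with KCl, a log2 fold change of 0.59 ± 0.21 (difference 3.56 ± 0.34, adjusted p = 5.14e-09). Btg2 had 24.1 and 20.3 CPM, below 27.5, 37.6 and 42.1 CPM in basal cultures (difference 3.19 ± 0.30, adjusted p = 5.14e-09), and Klf4 had 5.19 and 2.96 CPM (difference 3.73 ± 0.69, adjusted p = 0.00463). Of the 14 risen early transcription factors, 12 differed in this way, the exceptions being Npas4 (0.50 ± 0.30) and Nr4a2 (1.00 ± 0.51). In basal TTX 11 of these 14 were lower than in basal cultures, so their TTXw response started from a lower level. The difference did not pass for Arc (0.30 ± 0.30, adjusted p = 0.851). F8a (-1.96 ± 0.41), Col6a1 (-1.15 ± 0.26) and Jarid2 (-1.12 ± 0.24) had the most negative differences among called genes with an average log2 CPM of at least 3. The TTXw samples of Col6a1 and Jarid2 overlapped those of basal TTX, with 78.3 and 109 CPM against 105 to 133 CPM and 80.7 and 54.8 CPM against 79.9 to 95.1 CPM. The count was 13 without TTXw replicate 1, 10 and 14 without KCl replicates 1 and 2, and 18 without basal replicate 1.

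Levels reached at 45 min were finally set against cultures that had never been silenced. By the paper's methods, TTXw cultures were washed by repeated exchanges into fresh medium, and basal cultures kept most of their conditioned medium. The part of this handling in the differences was not tested. These groups differ by 48 h of TTX as well as by its removal, and 2442 genes differed (20.3%), 1270 higher (10.6%) and 1172 lower (9.74%), or 1566 without TTXw replicate 1. Of the 42 risen genes 27 were above the basal level, 2 below it and 13 did not pass, again with the TTXw samples that chose them. Fos at 45 min (191 and 134 CPM) was over the basal samples (37.5, 48.01 and 51.2 CPM) by 1.83 ± 0.20 on the log2 scale (adjusted p = 8.39e-09), and Klf4 by 2.50 ± 0.39, Fosb by 1.70 ± 0.24 and Ier2 by 1.67 ± 0.22. Atf3 (-0.08 ± 0.22), Maff (-0.31 ± 0.36) and Dusp1 (-0.22 ± 0.21) did not differ from basal cultures past the threshold, having been -2.26, -3.53 and -2.41 in basal TTX against basal. Npas4 was still lower (-1.56 ± 0.20, adjusted p = 1.96e-07), at 23.1 ± 6.06 CPM (SD, n = 2) against 68.9 ± 11.8 CPM (SD, n = 3), as was Ppp1r15a (-0.84 ± 0.22).

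Basal TTX itself differed from basal cultures in 21.6% of genes, with 17 of the 42 lower (10.8% of all genes) and 2 higher (10.8%). Of 17 secreted factors and neuropeptides 12 were below basal cultures at 45 min (9.74% of all genes) and 1 was above (10.6%), with a median log2 difference of -1.97. In basal TTX against basal cultures 10 of the 17 were lower and 1 was higher, with a median of -1.33. Bdnf had 35.3 and 28.4 CPM at 45 min and 647, 797 and 413 CPM in basal cultures, and Rgs4, a brake on G protein signals, 224 and 293 and 2549.7, 2892 and 2076 CPM. Of the sterol genes, 15 of 16 were lower (median -1.23), and 14 of 16 were lower in basal TTX against basal cultures (median -1.49). Early transcription factors had 11 higher and 7 lower of 28, and in basal TTX against basal cultures 2 higher and 19 lower. By the rule for named genes, the largest differences were higher in Rasl10a (4.87 ± 0.49), Neat1 (4.10 ± 0.58) and Slc25a18 (3.51 ± 0.57) and lower in Car6 (-6.05 ± 0.84), Alkal2 (-5.01 ± 0.32) and Lce1g (-4.71 ± 1.03). Astrocyte markers summed to 3116 to 3696 CPM in basal cultures, below the 8509.9 to 11210.0 CPM of TTXw at 45 min, with 11 of 12 higher. All 12 were also higher in basal TTX than in basal cultures, and the part of astrocytes in this comparison was not tested.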

How the data were processed

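The deposited table of the stimuli experiment holds whole-number counts per RefSeq transcript that the authors made from CEL-Seq2 reads with STAR (mm10) and ESAT; whether molecular identifiers were collapsed is not given in the sources used here. Of 96722 transcripts, 78229 (80.9%) matched a gene symbol by accession and the others held 19.2% of the counts. Transcripts of a gene mostly repeat the same 3′ reads, so the transcript holding most counts stood for the gene, and its counts may miss other ends. CPM after TMM scaling, and edgeR 4.0.16 (R 4.3.3) quasi-likelihood fits over 27 samples by group, gave the 6 tests; DESeq2 1.42.0 was an alternative. The code was tested on simulated data. Each SE is the size of the log2 fold change divided by the square root of the F statistic of its test. Gene spans and promoters came from RefSeq (GRCm38.p6). Depth was 1177500 to 3909487 counts per sample (median 2384138), and intervals cover counting error only. Replicate pairs differed by more than counting noise (chi-square per degree of freedom 2.22 to 3.56). The labels named no batch, but the names of the count columns carry a letter, A or B, whose meaning is not given. All TTXw and basal TTX samples have A, and the Bic and KCl samples compared here have B. Basal cultures have samples of both letters. The TTXw responses therefore differ from those to Bic and KCl in this letter as well, and its part in these differences was not tested.

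The gene lists, members and tests were chosen with earlier results of these data known. Named genes were the 12 largest rises and 8 largest falls (3 were found) among called genes whose average level reached a log2 CPM of 3 and whose samples do not overlap, each called list member or the 2 most abundant members, and 3 rises and 3 falls in each other comparison; others are said to be named after their values were seen. Alternatives were the likelihood ratio test, DESeq2, other size factors, other filters, thinned counts, other sample sets, summed transcripts, a replicate block and leaving out each sample. The maturation experiment was not used here, and a few genes that the rule names are not reported here.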

Additional observations from a re-analysis of the deposited data

Results flagged for a closer look

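Of 66 genes looked at in the 4 basal TTX samples, 6 had a sample far from the other three by Dixon's test (chance flags about 1 in 20). Replicate 2 was high for Fos (19.2 CPM), replicate 1 for Maff (3.33 CPM), and replicate 3 for Nr4a2 (6.44 CPM), Hes1 (20.7 CPM) and Mef2c (1396 CPM), while replicate 3 was low for Junb (11.4 CPM).

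The 46 genes were chosen on the same TTXw samples, which favours larger changes in TTXw. The TTXw response at 45 min differed from the Bic response, by the test of the difference, in 13 of the 46 (against 1.78% of all genes tested). It was larger in TTXw, on the log2 scale, for Zfp36 (6.04), Maff (3.82), Klf4 (2.98), Ppp1r15a (2.00), Nfkbiz (1.78), Fos (1.61), Atf3 (1.56), Ftx (1.22), Purg (0.88) and Brd3 (0.86), and smaller for Arc (-3.46), F8a (-2.42) and Npas4 (-2.10). Zfp36 rests on few counts.

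The TTXw response differed from the KCl response in 18 of the 46 (against 0.233% of all genes tested), again with the TTXw samples that chose them. It was larger for Klf4 (3.73), Fos (3.56), Btg2 (3.19), Maff (3.16), Egr1 (2.75), Ier2 (2.72), Nr4a1 (2.33), Nfkbiz (2.28), Dusp1 (2.26), Atf3 (2.23), Fosb (2.03), Hes1 (2.01), Ppp1r15a (1.77), Junb (1.76), Klf6 (1.31), Jun (1.03) and Zfp36l1 (0.99), and smaller for F8a (-1.96).

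Among 3877 transcripts with no gene symbol that could be tested, 14 were called higher at 45 min and 0 lower by the quasi-likelihood test. Over all 29030 distinct transcripts tested, 129 were called.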

How the results depend on the processing

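All 46 genes called at 45 min kept their direction in every alternative that could test them, and 14 (the 15 of the leave-one-out fits less Klf4) kept their call in all 16 settings tried. Against basal TTX, 46 genes became 74 by the likelihood ratio test, 104 with no filter and 26 with transcripts summed, and 18 to 88 with 1 sample left out. Against 15 min, 32 became 72, 104 with no filter, 85 with the groups alone and 20 with the 12 TTX samples alone (15 to 67 with 1 sample left out). Between the TTXw and Bic responses 214 became 325 by the likelihood ratio test, 94 when thinned and 100 when summed (82 to 239), and between TTXw and KCl 28 became 45, 63 with no filter, 15 when thinned and 10 when summed (10 to 31). The counts of 1483 (180 against 45 min) and 2442 (against basal) ranged over 913 to 1481 and 1566 to 2228. With each transcript tested on its own, an alternative chosen after seeing the data, 66 genes had a called transcript. DESeq2 gave 47 genes against basal TTX, 44 against 15 min, 1316 for 180 against 45 min, 242 for Bic, 29 for KCl and 2164 against basal. Of the 46 genes called against basal TTX in the main fit, 35 kept their call by DESeq2 and 11 lost it, Hes1 among them. The 12 TTX samples alone give no value for Bic, KCl and basal. With 1 TTXw sample left, that sample is assumed to vary like the other groups. The cause of these moves was not tested, beyond the genes and samples each alternative adds or removes.

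Replicate numbers 1 and 3 are shared by TTXw at 45 min and basal TTX. Deviations of these same-numbered samples from their group means correlated over genes at -0.03 and -0.11. With 2 TTXw samples at 45 min, the deviation of one mirrors that of the other, so these values cannot decide whether samples were paired. Over all pairs between the TTX groups, correlations ran from -0.11 to 0.10 for the same number and from -0.11 to 0.11 for different numbers. With a replicate block the counts were 31 against basal TTX, 27 against 15 min, 1389 for 180 against 45 min, 55 for Bic, 12 for KCl and 2143 against basal.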

Other observations

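The table gives each transcript its own counts, and some genes have several 3′ ends. Testing the transcripts singly, a step chosen after the data were seen, 21 genes had a called transcript while the one that stood for the gene was not called, and all 21 were higher at 45 min. In Map1b, a microtubule-binding protein of axons and dendrites, a minor transcript had 202, 147, 172 and 122 CPM in basal TTX and 457 and 411 CPM in TTXw (log2 fold change 1.44 ± 0.25, SE, edgeR adjusted p = 0.00154), where the main transcript had 0.61. Gabra2, a GABA-A receptor subunit, had 15.96, 14.5, 16.5 and 7.59 CPM against 43.6 and 32.2 CPM in its minor transcript (1.53 ± 0.31, and 0.27 in the main one). Cplx2, a complexin of the release machinery, had 2.04 ± 0.42 beside 0.18, and Dync1i2, a dynein chain, 1.29 ± 0.29 beside 0.22. Strbp was uneven, with 28.9 and 116 CPM in the TTXw replicates. The difference between the transcripts of a gene was not itself tested. The Homer1 transcript with the short 3′ end had 0 to 4 counts in the 6 samples.

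Neat1, a nuclear noncoding RNA, had 4.66, 3.48, 9.30 and 6.87 CPM in basal TTX, 1.51, 1.44 and 2.81 CPM at 15 min, 32.99 and 9.14 CPM at 45 min and 69.3, 68.1 and 167 CPM at 180 min. It differed between 45 and 15 min (3.39 ± 0.58, adjusted p = 0.000719) and the difference between 45 min and basal TTX did not pass (1.74 ± 0.44, adjusted p = 0.0726). With transcripts tested singly, another Neat1 transcript was called higher than in basal TTX (2.00 ± 0.48, edgeR adjusted p = 0.0411). Its TTXw replicate 3, at 9.14 CPM, lay below its highest control, at 9.30 CPM.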
